A study of Rattus norvegicus with 12 samples.

Results

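The interleukin 1 system and the inflammatory cytokines around it were followed as 10 genes in the healing rat femur: Il1a and Il1b (the agonist ligands), Il1rn (their antagonist), Il1r1 and Il1r2 (the receptors), Nlrp3 (the inflammasome sensor), Il6, Tnf and Il10 (secreted cytokines) and Ptgs2 (the inducible cyclooxygenase). They were taken by symbol from the 22601 genes of the expression table, and all 10 were found. RNA came from the tissue in a defect drilled into the lateral femoral condyle of 8-week-old Sprague Dawley rats, 2 weeks after surgery. The 4 groups had 3 libraries each. A 3D printed scaffold of beta-tricalcium phosphate, a resorbable ceramic (the β-TCP group), of polycaprolactone, a slowly degrading polyester (the PCL group), or of gelatin methacryloyl (the hydrogel group) filled the defect, and in the control group the same defect was left without a scaffold. All groups therefore share the injury, and no uninjured bone was compared here. The labels do not say whether the libraries of a group came from separate rats, so p-values measure the spread between these libraries, which may be technical.

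Interleukin 1 alpha and beta bind the receptor Il1r1, which signals through MyD88 to NF-kB and MAP kinases and switches on genes such as Il6 and Ptgs2. Il1rn occupies the same receptor without signalling, and Il1r2 is a decoy that binds the ligand but cannot signal. Il1b is made as an inactive precursor by myeloid cells and is cut by caspase-1 once an inflammasome such as that of Nlrp3 has formed, a step that mRNA levels do not show. In bone, interleukin 1, interleukin 6 and Tnf are known to favour osteoclast formation, and Ptgs2 makes the prostaglandins needed for fracture repair.

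Values are FPKM, which divide the fragments of a gene by its length and by the size of the library. Since FPKM of a gene are whole multiples of 1 fragment, the fragments behind each value were recovered (within 0.01 of a whole number) for 18669 of the 18684 genes above 0, at 13408513 to 15590443 fragments per library. β-TCP replicates 2 and 3 were nearly the same library by their counts, with a chi-square of 2.18 per gene (median 0.72), against 31.4 to 285 in the other 11 pairs of replicates, and calls in β-TCP at the adjusted p are also given with this pair averaged. Control replicate 3 also stood apart, with summed cartilage marker levels of 13778 FPKM against 2321 and 2478 FPKM in the other control libraries. In bulk tissue, fewer cells of a type and less RNA per cell cannot be told apart. Macrophage markers were present in every library and summed to 1710, 2759 and 2798 FPKM in β-TCP, 1956, 1675 and 1424 FPKM in PCL, 1101, 1374 and 862 FPKM in hydrogel and 1090, 910 and 969 FPKM in control replicates 1 to 3, where only Marco was at 0 in some libraries. Of the 13 macrophage markers tested, 8 rose at the adjusted p in β-TCP against control, where 4.22% of all genes were higher, and 0 did with β-TCP replicates 2 and 3 averaged (9 of the 13 were higher at the fold threshold defined with the comparisons, and 8 after that averaging). The part of cell composition in the results on the cytokine genes was not tested.

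The sequences before the transcription start are shown for the 4 members with a matched promoter that passed a threshold in a comparison (Il1b, Il1rn, Il6 and Ptgs2) and for Il1a, the member with the widest division between β-TCP libraries, since they are the stretches in which NF-kB, AP-1 and C/EBP factors are known to act on cytokine genes. The 250 bases before the start were taken from RefSeq (build GRCr8, which is not the build named for the expression files) and 8 of the 10 members matched. Capitals mark matches, on either strand, to the NF-kB consensus, to AP-1 (TGANTCA), to C/EBP (TTNNGNAA) and to the TATA box (TATAAA, which is TTTATA on the opposite strand). The windows are Il1a (chr3:136990018-136990267, - strand), Il1b (chr3:137036582-137036831, - strand), Il1rn (chr3:27520072-27520321, + strand), Il6 (chr4:5894576-5894825, - strand) and Ptgs2 (chr13:64713813-64714062, + strand), each printed 5′ to 3′ along the gene.
Il1a: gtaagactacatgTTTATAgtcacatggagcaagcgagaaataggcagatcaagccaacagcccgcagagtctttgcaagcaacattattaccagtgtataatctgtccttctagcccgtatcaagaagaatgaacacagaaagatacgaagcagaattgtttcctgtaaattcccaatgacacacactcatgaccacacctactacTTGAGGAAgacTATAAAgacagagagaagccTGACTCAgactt
Il1b: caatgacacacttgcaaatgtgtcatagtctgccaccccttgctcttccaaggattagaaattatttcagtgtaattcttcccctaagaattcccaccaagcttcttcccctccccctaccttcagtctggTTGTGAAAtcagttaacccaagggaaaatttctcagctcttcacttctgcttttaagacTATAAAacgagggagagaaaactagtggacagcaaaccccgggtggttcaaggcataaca
Il1rn: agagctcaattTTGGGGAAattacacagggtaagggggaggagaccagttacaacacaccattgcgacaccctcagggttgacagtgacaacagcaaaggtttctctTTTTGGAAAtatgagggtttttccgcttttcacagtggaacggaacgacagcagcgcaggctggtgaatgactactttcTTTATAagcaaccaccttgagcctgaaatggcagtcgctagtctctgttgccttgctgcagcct
Il6: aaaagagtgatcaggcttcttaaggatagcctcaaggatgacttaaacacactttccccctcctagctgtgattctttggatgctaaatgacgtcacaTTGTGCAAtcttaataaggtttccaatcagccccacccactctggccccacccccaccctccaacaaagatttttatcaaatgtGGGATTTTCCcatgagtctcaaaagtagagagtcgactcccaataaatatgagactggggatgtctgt
Ptgs2: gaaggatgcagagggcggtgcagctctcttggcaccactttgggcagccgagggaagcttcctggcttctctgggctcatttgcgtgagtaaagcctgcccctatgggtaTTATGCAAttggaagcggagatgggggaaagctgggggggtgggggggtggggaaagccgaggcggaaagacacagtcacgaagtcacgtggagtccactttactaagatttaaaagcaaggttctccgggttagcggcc

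An NF-kB consensus match lay in 2 of the 8 windows, that of Il6 (GGGATTTTCC, 68 to 59 bases before the start) and, on the opposite strand, that of Il1r1, whereas 6.33% of all 33469 RefSeq promoter windows of this length hold one. A C/EBP match was found in 7 of the 8 windows, against 37.2% of all promoters, among them TTGTGCAA in Il6 and TTATGCAA in Ptgs2. Il1rn held overlapping C/EBP matches (TTTTGGAA and TTTGGAAA). TATA matches lay in 4 of the 8 windows, against 12.9% of all, and the only AP-1 match was in Il1a, against 6.34% of all. These matches describe letters in a window and are not evidence that a factor was bound in this tissue.

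Among the ligands, Il1b was the most abundant. It had 16.2, 74.8 and 81.9 FPKM in β-TCP replicates 1 to 3, 18.3, 18.4 and 19.9 FPKM in PCL, 17.6, 17.9 and 14.3 FPKM in hydrogel and 18.3, 11.8 and 2.15 FPKM in the control group. β-TCP replicates 2 and 3 stood above all other libraries, while β-TCP replicate 1 lay among the PCL, hydrogel and control libraries, so the β-TCP group overlapped every other group. Within the β-TCP group, replicates 2 and 3 together were 4.85 times replicate 1 (95% interval for counting error only, 4.35 to 5.42).

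Il1a, the ligand that is active without being cut, showed the same division at a far lower level. It had 0.148, 3.78 and 3.99 FPKM in β-TCP, 0.241, 0.319 and 0.212 FPKM in PCL, 0.242, 0.160 and 0.167 FPKM in hydrogel and 0.297, 0.364 and 0.0617 FPKM in control replicates 1 to 3. These stand for 5, 122 and 131 fragments in the β-TCP libraries and for 2 to 11 in the other 9. The ratio of β-TCP replicates 2 and 3 to replicate 1 was 26.2 (counting interval 11.1 to 81.5), the widest division of any member. With only 2 libraries at 1 FPKM or more, Il1a did not enter the test.

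Il1rn, whose product blocks the action of both ligands, was high in all PCL libraries as well as in β-TCP replicates 2 and 3. Its levels were 7.85, 40.8 and 42.2 FPKM in β-TCP, 34.3, 32.9 and 21.8 FPKM in PCL, 7.93, 13.2 and 7.20 FPKM in hydrogel and 10.6, 6.96 and 1.93 FPKM in control replicates 1 to 3. The PCL libraries did not overlap with the hydrogel or control libraries. Set against Il1b in the same library, the FPKM ratio of Il1rn to Il1b was 1.88, 1.79 and 1.098 in PCL replicates 1 to 3 and lay between 0.452 and 0.899 in the other 9 libraries, with β-TCP at 0.486, 0.545 and 0.516. The ratio was thus highest in the 3 PCL libraries. Whether it lies above 1 depends on the gene lengths used for FPKM. In fragments, Il1rn was above Il1b in every library (835 against 367 in control replicate 1). This ratio was chosen after the values were seen and carries no test.

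**Figure D1:**
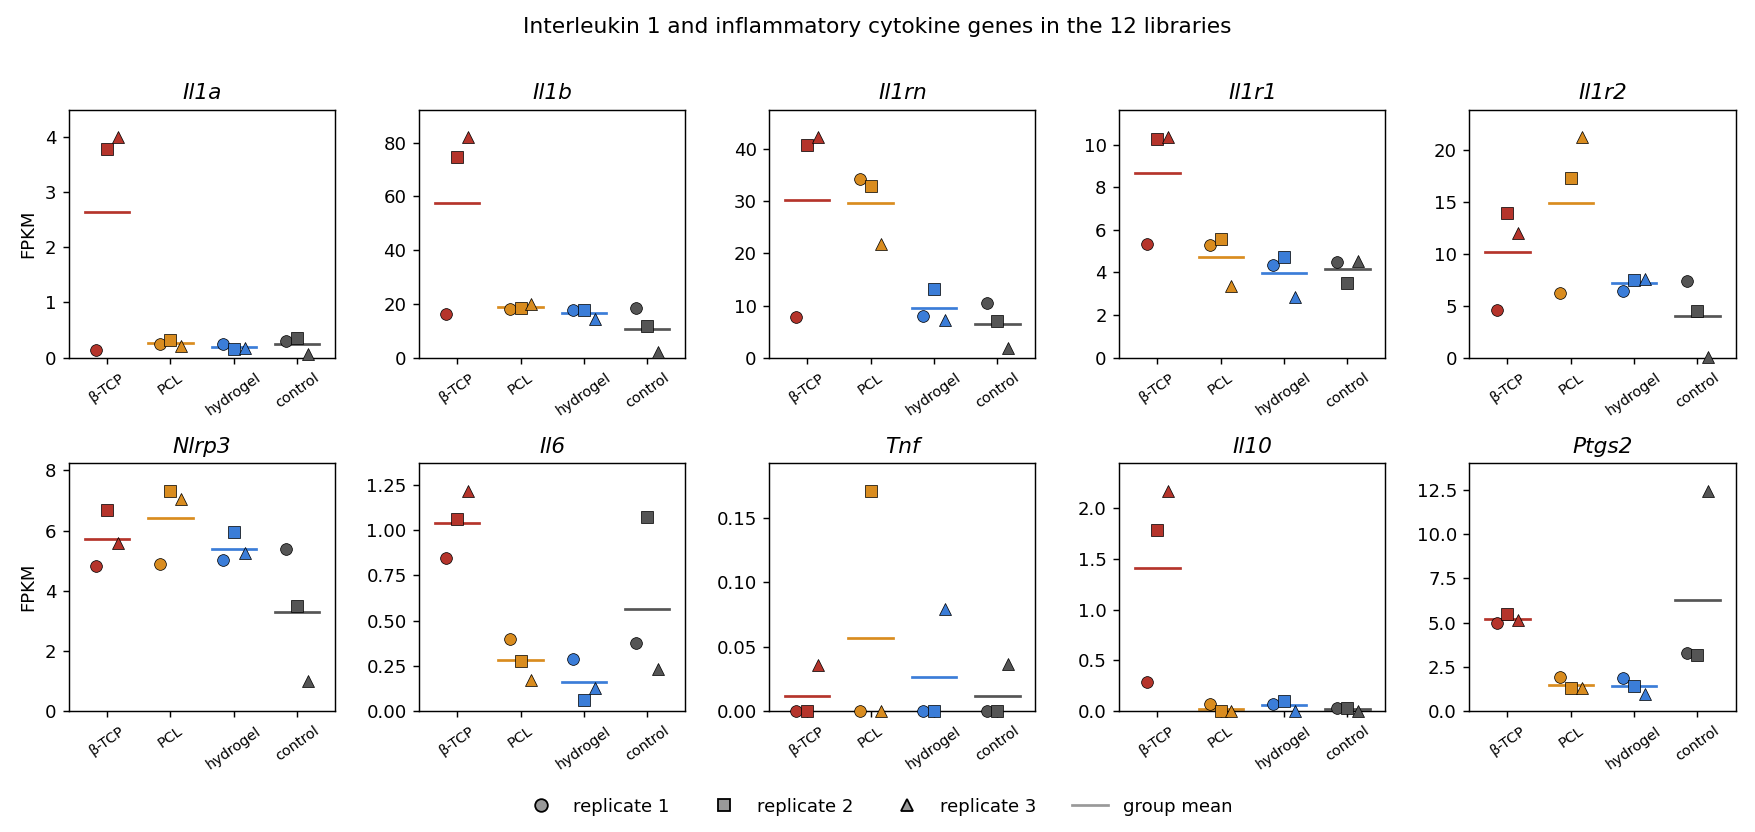
FPKM of the 10 genes in each library (vertical axis, linear, from 0, with its own range per gene) by group on the horizontal axis, with symbols for replicates 1 to 3 and a line at the group mean. β-TCP replicates 2 and 3 lie far above replicate 1 for Il1a, Il1b, Il1rn and Il10, whereas the 3 β-TCP libraries lie together for Il6 (0.845 to 1.22 FPKM) and Ptgs2 (4.96 to 5.47 FPKM).

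The signalling receptor Il1r1 was expressed in every library. It had 5.36, 10.3 and 10.3 FPKM in β-TCP, 5.29, 5.59 and 3.36 FPKM in PCL, 4.34, 4.74 and 2.84 FPKM in hydrogel and 4.47, 3.51 and 4.55 FPKM in control replicates 1 to 3. The lowest β-TCP library was above the highest hydrogel and control library, but within the PCL range. Unlike the ligands, Il1r1 was not low in control replicate 3, where its level was 1.14 times that of the other control libraries (counting interval 1.04 to 1.25).

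The decoy receptor Il1r2 was highest in PCL replicates 2 and 3. Its levels were 4.62, 13.98 and 12 FPKM in β-TCP, 6.28, 17.4 and 21.3 FPKM in PCL, 6.47, 7.45 and 7.61 FPKM in hydrogel and 7.43, 4.51 and 0.0920 FPKM in control replicates 1 to 3. In control replicate 3 the value stands for 3 fragments, and the level was 0.0154 times that of the other control libraries (counting interval 0.00316 to 0.0453). Neutrophils are a known source of this receptor, and summed neutrophil markers were 2322, 1861 and 1879 FPKM in β-TCP, 2591, 5801 and 6332 FPKM in PCL, 3791, 2925 and 5035 FPKM in hydrogel and 3223, 3707 and 827 FPKM in control replicates 1 to 3. Among the neutrophil markers only Ltf was at 0 in any library, in the β-TCP and control groups. The sums were high where Il1r2 was high in PCL and low where it was low in the control group, but not in β-TCP. Their part in the Il1r2 levels was not tested.

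Nlrp3 varied least of the interleukin 1 genes across the scaffold groups. It had 4.84, 6.70 and 5.59 FPKM in β-TCP, 4.88, 7.32 and 7.05 FPKM in PCL, 5.01, 5.94 and 5.26 FPKM in hydrogel and 5.39, 3.51 and 1.01 FPKM in control replicates 1 to 3. Only control replicate 3 lay far from the other libraries, at 0.226 times the other control libraries (counting interval 0.18 to 0.281).

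Il6 mRNA was near the limit of what this depth can measure. Its levels were 0.845, 1.06 and 1.22 FPKM in β-TCP, 0.401, 0.276 and 0.173 FPKM in PCL, 0.288, 0.0607 and 0.127 FPKM in hydrogel and 0.376, 1.07 and 0.235 FPKM in control replicates 1 to 3. In fragments these were 15, 18 and 21 in β-TCP, 7, 5 and 3 in PCL, 5, 1 and 2 in hydrogel and 6, 17 and 4 in control. All 3 β-TCP libraries were above all PCL and hydrogel libraries, and control replicate 2 was as high as they were. β-TCP replicates 2 and 3 were 1.35 times replicate 1, with a counting interval of 0.727 to 2.63 that includes no difference, so the division seen for the ligands was not detectable for Il6 at this depth. Il6 entered the test through control replicate 2 and β-TCP replicates 2 and 3, the only libraries at 1 FPKM or more.

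Tnf, the other classical macrophage cytokine, was listed at 0 in 8 of the 12 libraries and was under 1 FPKM in all of them. Fragments were seen only in β-TCP replicate 3 (1 fragment), PCL replicate 2 (5 fragments), hydrogel replicate 3 (2 fragments) and control replicate 3 (1 fragment). A count of 0 allows up to 3 fragments, which is 0.105 to 0.117 FPKM for this gene in the 8 libraries at 0. Differences in Tnf between groups were therefore not detectable at this depth, and the highest value was 0.171 FPKM.

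Il10, an anti-inflammatory cytokine, was seen mainly in the β-TCP group. It had 0.288, 1.78 and 2.17 FPKM in β-TCP (12, 71 and 88 fragments), 0.0731, 0 and 0 FPKM in PCL, 0.0736, 0.103 and 0 FPKM in hydrogel and 0.0267, 0.0268 and 0 FPKM in control replicates 1 to 3. The 9 libraries outside β-TCP held 4 fragments or fewer each, and every β-TCP library was above all of them. β-TCP replicates 2 and 3 were 6.87 times replicate 1 (counting interval 3.83 to 13.6). Il10 was below the level needed to enter the test.

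Ptgs2 followed a different order from the interleukin 1 ligands. It had 4.96, 5.47 and 5.17 FPKM in β-TCP, 1.91, 1.30 and 1.29 FPKM in PCL, 1.89, 1.43 and 0.953 FPKM in hydrogel and 3.29, 3.16 and 12.4 FPKM in control replicates 1 to 3. The 3 β-TCP libraries lay close together, with replicates 2 and 3 at 1.07 times replicate 1 (counting interval 0.88 to 1.31), and all β-TCP and control libraries were above all PCL and hydrogel libraries. Control replicate 3, the cartilage-rich library in which Il1b, Il1rn, Il1r2 and Nlrp3 were low, had the highest Ptgs2 level of the series, 3.86 times the other control libraries (counting interval 3.22 to 4.64).

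The groups were then compared with limma on log2(FPKM + 1) over the 12633 genes that reached 1 FPKM in at least 3 libraries, 7 of the 10 members among them. A fold change on this scale understates the change of low genes. A gene was called where its p, adjusted by Benjamini and Hochberg's method, was under 0.05. A fold threshold follows the methods of the study and asks for a fold change above 2 or below 0.5 at an unadjusted p of less than 0.05. Neither threshold includes the other, since a gene called at the adjusted p can change by less than the fold asked for. Counts at an unadjusted p under 0.05 alone are given as description only, without the share of all genes at that cutoff.

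In β-TCP against control, 2 of the 7 tested members, Il1b and Il1rn, were higher at the fold threshold, where 2.49% of all tested genes were higher and 1.03% lower. Il1b was higher by a log2 fold change of 2.37 (SE 0.68, limma adjusted p = 0.0744) and Il1rn by 1.96 (SE 0.63, limma adjusted p = 0.11), and in both the groups overlapped because of β-TCP replicate 1. No member passed the adjusted p, at which 4.22% of all genes were higher and 0.562% lower (4 of the 7 had an unadjusted p under 0.05, and limma-voom on the recovered fragments called none either). Without β-TCP replicate 1 the log2 fold changes were 3.11 for Il1b, 2.72 for Il1rn and 1.13 for Il1r1, these 3 members passed the adjusted p, and Il1r2 joined them at the fold threshold. Of all genes, 525 passed the adjusted p in that fit and 425 were higher at the fold threshold, against 604 and 314 with all libraries. That fit leaves only the near-identical replicates 2 and 3 in β-TCP, which differ less than any other replicate pair, and with the 2 averaged 0 members passed the adjusted p. Without control replicate 3 the changes were 1.6 for Il1b and 1.39 for Il1rn, and after averaging β-TCP replicates 2 and 3 they were 2.01 and 1.59, still past the fold threshold. Without control replicate 1, Il1b passed the adjusted p, at 2.91, and Il1r2 and Nlrp3 joined the calls at the fold threshold. In that fit 580 of all genes passed the adjusted p, against 604 with all libraries, and 465 were higher at the fold threshold, against 314. Il1r1 was higher in the main comparison by 0.86 (SE 0.26, limma adjusted p = 0.0869), with no overlap between the groups. When genes below the filter were tested too, Il10 was higher by 1.14 (SE 0.26, limma adjusted p = 0.0497) and Il1a by 1.29 (SE 0.45, limma adjusted p = 0.178). In the same test with β-TCP replicates 2 and 3 averaged, an alternative chosen after seeing the data, Il10 was higher by 0.94 (limma adjusted p = 0.197) and Il1a by 0.94 (limma adjusted p = 0.536).

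In PCL against control, 3 of the 7 members passed the fold threshold. Il1rn was higher by 2.22 (SE 0.63, limma adjusted p = 0.154) and Il1r2 by 1.96 (SE 0.70, limma adjusted p = 0.209), against 2.37% of all genes higher. Ptgs2 was lower by a log2 fold change of -1.32 (SE 0.38, limma adjusted p = 0.157), against 1.27% of all genes lower. The libraries of Il1rn and Ptgs2 did not overlap, and those of Il1r2 did. With limma-voom the Il1r2 change was 3.07. At the adjusted p no member was called by limma or limma-voom (0.245% of all genes were higher and 0.0317% lower), and 4 of the 7 had an unadjusted p under 0.05. Without control replicate 3, only Il1rn stayed past the fold threshold, at 1.65, with Il1r2 at 1.08 and Ptgs2 at -0.76, and Il1r2 also missed it without PCL replicate 2 (1.78) or PCL replicate 3 (1.64). Without control replicate 1 the calls were 5, with Il1b and Nlrp3 added. In that fit 500 of all genes were higher at the fold threshold, against 300 in the main comparison.

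In hydrogel against control, Ptgs2 alone of the 7 members passed the fold threshold and was lower by -1.37 on the log2 scale (SE 0.38, limma adjusted p = 0.312), with no overlap between the groups, where 1.48% of all genes were lower and 0.807% higher. It did not pass without control replicate 3, at -0.82. Without control replicate 1 the calls were 3, with Il1r2 and Nlrp3 added. In that fit 341 of all genes were higher at the fold threshold, against 102 in the main comparison. No member was called at the adjusted p by limma or limma-voom, where 0.00792% of all genes were higher and 0% lower, and 1 had an unadjusted p under 0.05. The median log2 change of all genes was 0.143 in this comparison, and 0.025 after median-of-ratios scaling, so changes here are best read against that shift. The direction of Ptgs2 was the same under both.

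**Figure D2:**
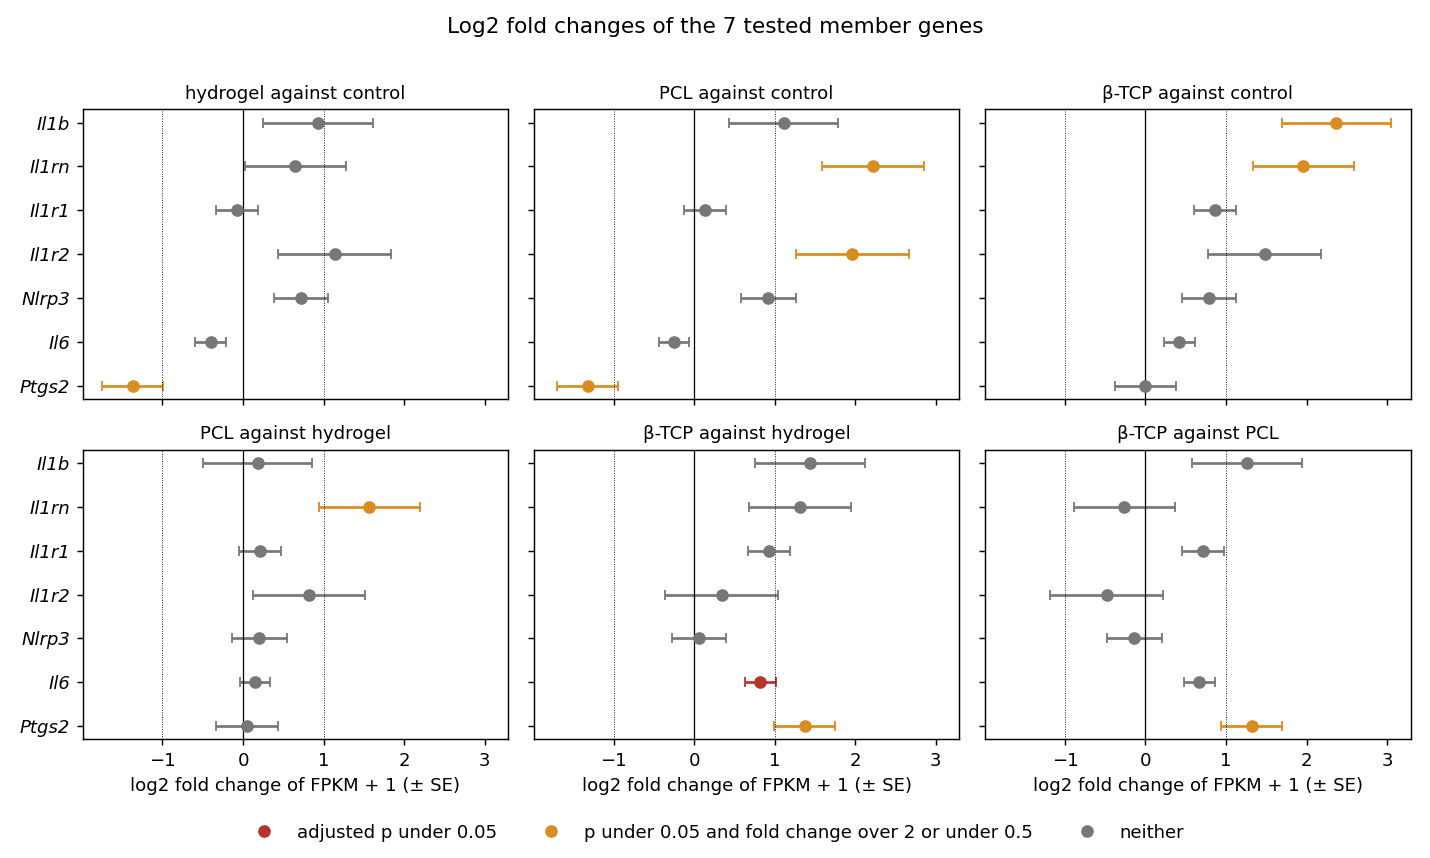
Log2 fold changes of FPKM + 1 (horizontal axis) with standard errors for the 7 tested members in the 6 comparisons, coloured by the threshold passed, with dotted lines at 1 and -1. Ptgs2 lies at about -1.3 in PCL and hydrogel against control and at about 1.3 in β-TCP against PCL and hydrogel, and Il6 in β-TCP against hydrogel is the single call at the adjusted p.

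Between scaffolds, Il6 was the only member called at the adjusted p, in β-TCP against hydrogel, where 5.17% of all genes were higher and 0.966% lower. It rose by a log2 fold change of 0.82 (SE 0.19, limma adjusted p = 0.0352) with no overlap between the libraries, on 15 to 21 fragments in β-TCP and 1 to 5 in hydrogel. The call did not survive the removal of hydrogel replicate 1 (0.90), hydrogel replicate 2 (0.76), hydrogel replicate 3 (0.80), PCL replicate 2 (0.82), β-TCP replicate 2 (0.81) or β-TCP replicate 3 (0.76), nor the averaging of β-TCP replicates 2 and 3 (0.78), while the change itself stayed near its value in these fits. With a pseudocount of 0.1 it was 2.22 and with limma-voom 2.71, both called at the adjusted p. Ptgs2 was higher by 1.37 (SE 0.38, limma adjusted p = 0.0575), past the fold threshold, at which 3.36% of all genes were higher and 5.02% lower, and Il1r1 was higher by 0.93 (SE 0.26, limma adjusted p = 0.0578). Neither overlapped. Il1b and Il1rn were higher by 1.44 and 1.31 and overlapped. With control replicate 3 left out, which enters only through the shared estimate of the spread, 4 members passed the adjusted p (Il1b, Il1r1, Il6 and Ptgs2). In that fit 4736 of all 12633 genes passed it, against 775 in the main comparison. Without β-TCP replicate 1 (which leaves the near-identical pair) 3 members and 677 of all genes passed it. Without control replicate 2 these were 3 members and 1967 of all genes. With the pair averaged 0 members passed the adjusted p. At the fold threshold the member calls were 4 without β-TCP replicate 1 (Il1b, Il1r1, Il1rn and Ptgs2) and 3 without control replicate 3. They were 2 without control replicate 1 or hydrogel replicate 2. Of all genes, 425 were higher at that threshold in the main comparison, 557 without β-TCP replicate 1 and 612 without hydrogel replicate 2. Without control replicate 3 they were 431, and without control replicate 1 they were 426.

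In β-TCP against PCL, Ptgs2 was higher by 1.32 (SE 0.38, limma adjusted p = 0.118) and passed the fold threshold, where 1.14% of all genes were higher and 3.34% lower. Il6 was higher by 0.67 (SE 0.19, limma adjusted p = 0.117), and neither gene overlapped. The Il6 change was 1.6 with a pseudocount of 0.1 and 1.88 with limma-voom, and passed the fold threshold in both. By limma and limma-voom no member was called at the adjusted p (0.57% of all genes higher, 0.0871% lower), and 3 members had an unadjusted p under 0.05. Without control replicate 3, Il6 and Ptgs2 were called at the adjusted p. In that fit 1912 of all 12633 genes were called, against 83 in the main comparison. Il1b passed the fold threshold as well without β-TCP replicate 1 or without control replicate 3. In these fits 218 and 148 of all genes were higher at that threshold, against 144 in the main comparison. Il1rn differed by -0.26 (SE 0.63) and Il1r2 by -0.48 (SE 0.70), both within their error. The higher Ptgs2 level of β-TCP stayed past the fold threshold against PCL (1.26 to 1.43) and against hydrogel (1.22 to 1.51) whichever of the 12 libraries was left out.

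In PCL against hydrogel, Il1rn was higher by 1.57 (SE 0.63, limma adjusted p = 0.588) with no overlap, the 1 member past the fold threshold, where 0.546% of all genes were higher and 0.222% lower. It did not pass without hydrogel replicate 1 (1.48), hydrogel replicate 3 (1.42), PCL replicate 1 (1.46) or PCL replicate 2 (1.49). No member was called at the adjusted p by limma or limma-voom, at which 0.103% of all genes were higher and 0% lower, and Il1rn alone had an unadjusted p under 0.05. Il1b differed by 0.18 (SE 0.68), although its PCL libraries, 18.3 to 19.9 FPKM, did not overlap with its hydrogel libraries, 14.3 to 17.9 FPKM.

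**Figure D3:**
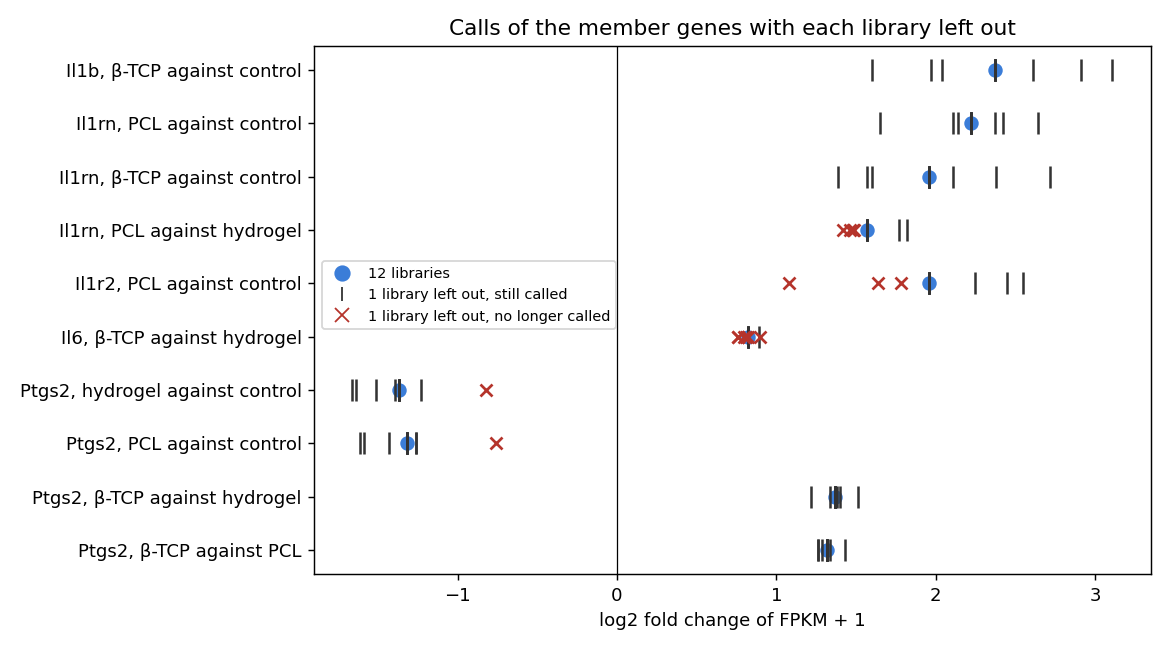
Log2 fold changes (horizontal axis) of the member genes called in a comparison, from all 12 libraries (circles) and with each library left out in turn, as bars where the gene stayed past its threshold and crosses where it did not. The threshold is the adjusted p for Il6 and the fold threshold for the others, and the calls kept in all such fits are Il1b in β-TCP against control, Il1rn in both β-TCP and PCL against control, and Ptgs2 in β-TCP against hydrogel and PCL.

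Other genes of the same pathways were counted from lists of the interleukin 1 family, the inflammasome, NF-kB, TNF, interleukin 6, interleukin 10 and prostaglandins. The NF-kB list holds subunits and inhibitors, several of them known feedback targets of the pathway. In β-TCP against control 5 of its 15 tested genes rose at the adjusted p and none fell, where 4.22% of all genes were higher (median log2 change 0.59, against 0.03 over all genes). These were Nfkbia, which holds NF-kB in the cytoplasm, Tnfaip3 and Tnip1, which end its signal, and the family members Bcl3 and Relb. Nfkbia had 137, 148 and 141 FPKM in β-TCP, 65.4, 57.4 and 45.7 FPKM in PCL, 57.6, 82.2 and 70.7 FPKM in hydrogel and 74.0, 59.98 and 49.3 FPKM in control replicates 1 to 3. β-TCP replicate 1 was thus as high as the others, unlike for the interleukin 1 ligands, and no other group reached the β-TCP level. The Nfkbia log2 fold change was 1.22 against control (SE 0.18, limma adjusted p = 0.0125), 1.33 against PCL (SE 0.18, limma adjusted p = 0.0197) and 1.02 against hydrogel (SE 0.18, limma adjusted p = 0.015). Against hydrogel 5 of the 15 rose (Nfkbia, Tnfaip3, Tnip1, Bcl3 and Nfkbiz), where 5.17% of all genes were higher, and 8 of the 15 had a positive change (median 0.19, against -0.06 over all genes). Against PCL 1 of the 15 rose, Nfkbia, where 0.57% of all genes were higher. With β-TCP replicates 2 and 3 averaged, 0 of the 15 passed the adjusted p in each of these comparisons.

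The interleukin 6 family was next. In β-TCP against hydrogel 4 of 16 tested genes rose, Lif (a cytokine of the family), Osmr (the oncostatin M receptor), Socs3 (the feedback inhibitor of this signal) and the transcription factor Cebpd, and in β-TCP against control 2 did, Socs3 and Cebpb, with none falling in either. All-gene shares of higher genes in these comparisons were 5.17% and 4.22%, and with β-TCP replicates 2 and 3 averaged 0 of the 16 passed in either. Socs3 had 26.6, 46.4 and 46.4 FPKM in β-TCP, 25.0, 15.9 and 12.9 FPKM in PCL, 12.9, 19.1 and 10.7 FPKM in hydrogel and 16.7, 14.4 and 16.6 FPKM in control replicates 1 to 3. Its β-TCP libraries did not overlap with any other group, and its log2 fold change was 1.41 against hydrogel (SE 0.28, limma adjusted p = 0.0216) and 1.23 against control (SE 0.28, limma adjusted p = 0.0384). Osmr had 10.04, 11.5 and 11.6 FPKM in β-TCP and 5.24, 5.88 and 2.20 FPKM in hydrogel. Jak1, the most abundant gene of the list, differed by 0.01 between β-TCP and control (SE 0.19), within its error. Osm, a ligand made by macrophages and neutrophils, passed only the fold threshold, in PCL against control (log2 fold change 1.23, SE 0.40, limma adjusted p = 0.191), and not without control replicate 3 (0.86) or PCL replicate 3 (0.98).

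Of the 19 other tested genes of the interleukin 1 family, Il18bp, the secreted inhibitor of interleukin 18, was the one called in most comparisons. It had 9.03, 17.3 and 17.8 FPKM in β-TCP, 32.5, 24.4 and 19.6 FPKM in PCL, 5.67, 9.03 and 5.43 FPKM in hydrogel and 6.05, 5.87 and 4.87 FPKM in control replicates 1 to 3. PCL was above all other libraries, by a log2 fold change of 1.98 against control (SE 0.27, limma adjusted p = 0.0188) and 1.78 against hydrogel (SE 0.27, limma adjusted p = 0.0499). The call against control did not hold without PCL replicate 1 (1.80) or PCL replicate 2 (2.00), and that against hydrogel (1.6 to 1.99 with 1 library left out) held only where the library left out was control replicate 3, hydrogel replicate 2 or β-TCP replicate 1. Il18 itself rose by 1.11 in β-TCP against control (SE 0.27, limma adjusted p = 0.043), where 2 of the 19 genes and 4.22% of all genes were higher, and Il33, an alarmin, passed only the fold threshold, against hydrogel (1.43) and PCL, and against PCL it did not pass without PCL replicate 2 (0.99), PCL replicate 3 (0.85), β-TCP replicate 2 (0.79) or β-TCP replicate 3 (0.81). The list's median change in β-TCP against control was 0.16, against 0.03 over all genes. By limma-voom none of the 19 genes, Il18bp included, was called at the adjusted p in any comparison. None of the 14 inflammasome genes was called at the adjusted p in any of the 6 comparisons by limma or limma-voom, and 1 to 3 of them had an unadjusted p under 0.05 in each. P2rx4, the ATP-gated channel, passed the fold threshold in PCL against control (1.16), but not without control replicate 2 (0.99) or PCL replicate 1 (0.91).

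The other lists held few calls. Traf1, an adaptor of TNF receptors, rose in β-TCP against control (0.87) and hydrogel (0.82), the only call among 13 genes of TNF signalling in each and so near the shares of all genes that were higher (4.22% and 5.17%), while the receptor Tnfrsf1a differed by 0.26 and 0.39 with no call. In the interleukin 10 list of 10 genes, Il10rb rose against control (0.63) and Tgfb1 against hydrogel (0.53), again 1 gene each. Arg1, an arginase of alternatively activated macrophages, had 2.93, 104 and 94.8 FPKM in β-TCP, 3.65, 1.87 and 1.599 FPKM in PCL, 1.88, 1.895 and 1.28 FPKM in hydrogel and 1.22, 1.27 and 4.72 FPKM in control replicates 1 to 3. It had the division of β-TCP replicates 2 and 3 from replicate 1 seen for Il1a and Il10, and passed the fold threshold, not the adjusted p, against control (3.47, SE 1.02), PCL (3.38, SE 1.02) and hydrogel (3.67, SE 1.02). With β-TCP replicates 2 and 3 averaged the Arg1 changes were 2.69, 2.6 and 2.89, still past the fold threshold, whereas with limma-voom on the recovered fragments (3.95, 3.82 and 4.24) none of the 3 had an unadjusted p under 0.05.

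Of the 16 prostaglandin genes, Tbxas1 (thromboxane synthase) rose in β-TCP against control by 1.15 (SE 0.27, limma adjusted p = 0.0418), 1 gene of 16 where 4.22% of all genes were higher. Ptges, the inducible prostaglandin E synthase that works after Ptgs2, had 1.31, 6.78 and 7.48 FPKM in β-TCP, 1.097, 0.781 and 1.01 FPKM in PCL, 0.769, 1.42 and 0.796 FPKM in hydrogel and 1.67, 2.36 and 2.69 FPKM in control replicates 1 to 3. It passed the fold threshold in β-TCP against hydrogel (1.44) and PCL (1.45), also with β-TCP replicates 2 and 3 averaged (1.14 and 1.15), but β-TCP replicate 1, although as high as the others in Ptgs2, lay near the hydrogel and PCL libraries in Ptges. Hpgds, which makes prostaglandin D, was lower in β-TCP than in hydrogel (-1.52) and PCL (-1.10) at the fold threshold. The second of these was not past it without PCL replicate 1 (-0.99), and it missed it in 8 of the 12 fits with 1 library left out.

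All 24 calls of a named pathway gene at the adjusted p in a β-TCP comparison kept their direction in every alternative run. With the mean of β-TCP replicates 2 and 3 in place of both, or either left out, none of the 24 passed the adjusted p, and over all genes the calls at that p in β-TCP against control were 11, against 604 with both counted. Those that passed were 17 without β-TCP replicate 1, 18, 6 and 20 without PCL replicates 1, 2 and 3, 4, 19 and 13 without hydrogel replicates 1, 2 and 3, and 18, 13 and 22 without control replicates 1, 2 and 3. With limma-voom on the recovered fragments 16 of the 24 passed. Those lost there were Bcl3, Il10rb, Il18, Il18bp, Socs3, Tbxas1 and Traf1 against control, and Cebpd against hydrogel.

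**Figure D4:**
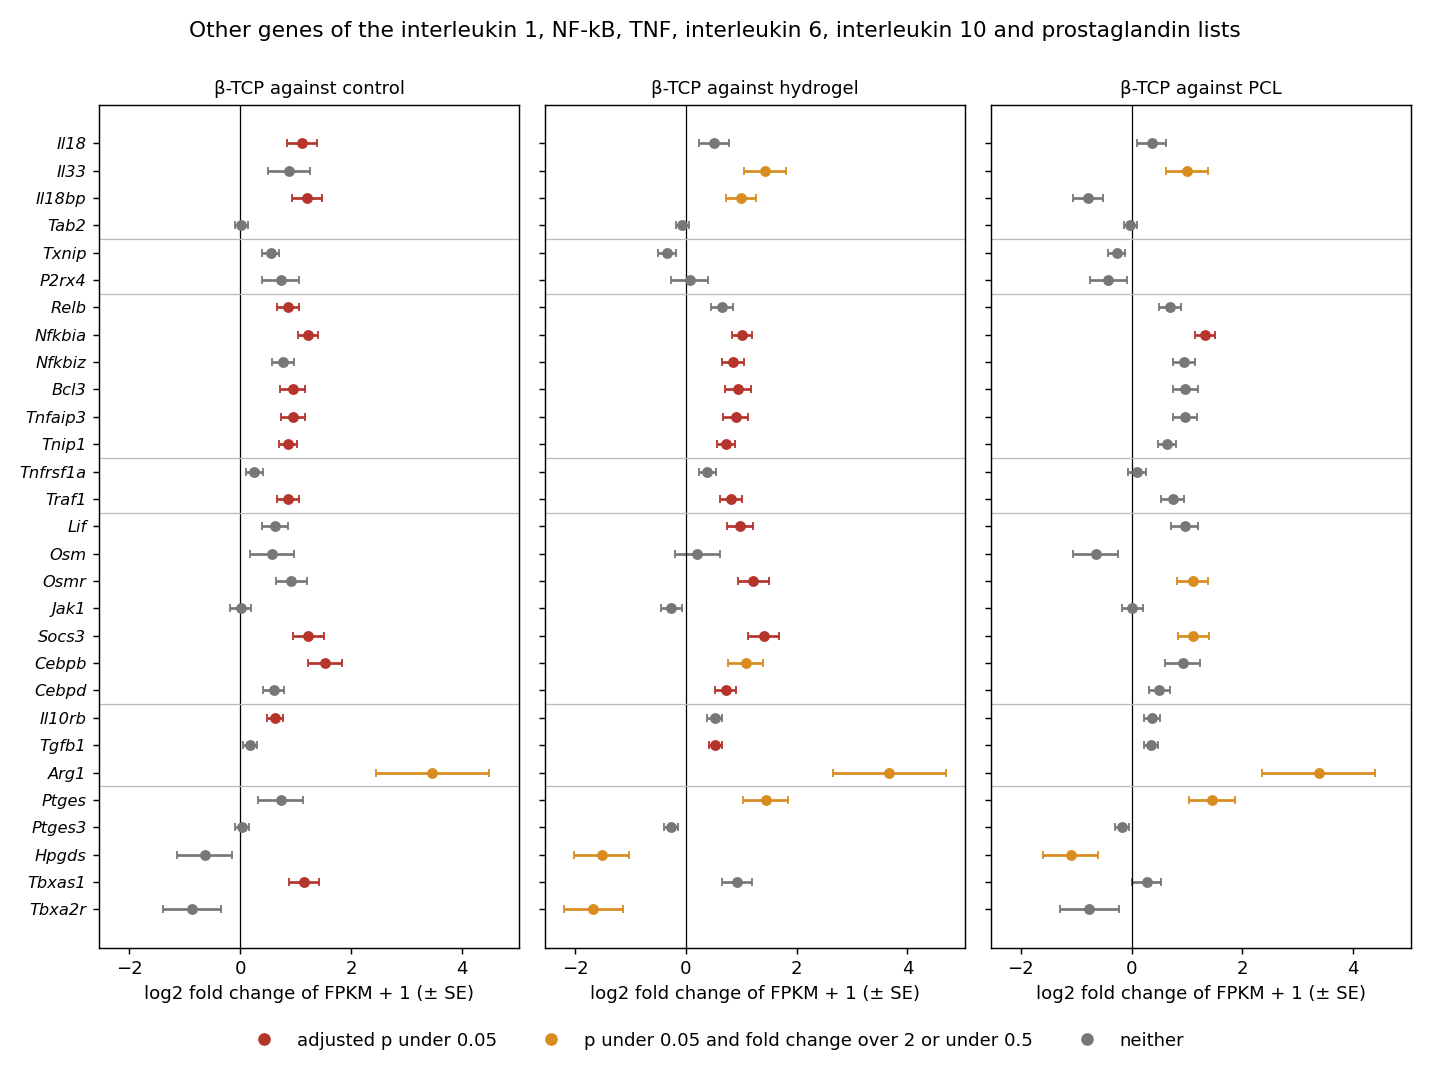
Log2 fold changes of FPKM + 1 (horizontal axis) with standard errors in β-TCP against control, hydrogel and PCL for the named genes of the 7 pathway lists, separated by grey lines and coloured by the threshold passed. The NF-kB inhibitors Nfkbia, Tnfaip3 and Tnip1 lie between 0.64 and 1.33 in the 3 panels, and Arg1 has the largest change with the widest error.

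Over the 12 libraries the members fell into patterns that are given as description only, since the points share libraries and β-TCP replicates 2 and 3 carry much weight. On the log2(FPKM + 1) scale Il1a was most like Il10 (Pearson r 0.97) and Il1r2 like Nlrp3 (0.96), Il1b went with Il1rn (0.84) and Il1a (0.82), and Ptgs2 ran against Nlrp3 (-0.68) and Il1r2 (-0.63). The genes most like Il1b among all tested genes were Gk (0.976), Clec4a2 (0.975), Slc7a8 (0.974), Adgre1 (0.965) and Cd300lf (0.96), of which Adgre1, a macrophage surface receptor, is in the macrophage marker list. Those most like Il1r1 were Cxcl16 (0.987), Nek6 (0.976), Npl (0.975), Ninj1 (0.974) and Gpm6b (0.973).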

How the data were processed

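RNA was sequenced from 12 rat libraries in 4 groups, taken from the sample labels. Trimmomatic, HISAT2 and Cufflinks served the authors for trimming, alignment and the deposited FPKM of each gene, and the submitters' processing notes name Rnor_6.0. The methods and the labels describe different extraction and library kits, so whether counting used strand is open. The 3 value columns that match no sample label were not used.

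The 12633 genes that reached 1 FPKM in 3 or more libraries entered limma 3.58.1 (R 4.3.3) on log2(FPKM + 1), as 1 fit of 12 libraries with an empirical Bayes trend. Tests were two-sided, with p adjusted over these genes by the Benjamini-Hochberg method. The fit was tested on simulated data. Fragments came from FPKM steps, and 15 genes were not recovered. Intervals are 95% exact and cover counting error only. Named pathway genes are, per list, every gene called at the adjusted p, up to 4 at the fold threshold by p, and the gene with the highest mean. The members and lists were chosen with earlier results of these data known. Alternatives were the pseudocount, filters, scalings, samples in the fit, a replicate block, leaving out each library, averaging β-TCP replicates 2 and 3, and limma-voom on recovered fragments.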

Additional observations from a re-analysis of the deposited data

How the results depend on the processing

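In β-TCP against hydrogel, the count of members at the adjusted p was 1 in the main comparison. It was 2 with a pseudocount of 0.1, 0 with a filter at 5 FPKM (which removes Il6) and 2 with median-of-ratios scaling. It was 2 with quantile normalization, 3 with only the 2 groups compared and 0 with β-TCP replicates 2 and 3 averaged. With 1 library left out it was 0 to 4. The calls among all tested genes rose as well, from 775 to 1341 with median-of-ratios scaling and 1538 with quantile normalization. They numbered 4251 with only the 2 groups compared, 719 with the pseudocount of 0.1, and 7 to 4736 with 1 library left out. At the fold threshold the count of members was 1. It was 3 with the pseudocount of 0.1, 3 with no filter and 3 with median-of-ratios scaling. It was 4 with quantile normalization, 2 with only the 2 groups compared, 4 with limma-voom and 1 to 4 with 1 library left out. Of all genes, 425 were higher at that threshold in the main comparison, 601 with the pseudocount of 0.1 and 660 with limma-voom. With no filter, either scaling or only the 2 groups compared they were 424 to 486. In β-TCP against control the count of members was 0 at the adjusted p (1 with no filter, 0 to 3 with 1 library left out). At the fold threshold it was 2 (4 with no filter, 2 to 4 with 1 library left out). Of all genes, 604 passed the adjusted p there, 535 with no filter and 11 to 1350 with 1 library left out. Those higher at the fold threshold were 314, 324 with no filter and 256 to 465 with 1 library left out. In β-TCP against PCL the count of members was 0 at the adjusted p (0 to 2 with 1 library left out, where 2 to 1912 of all genes passed). With only the 2 groups compared it was 2, where 2189 of all genes were called, against 83 in the main comparison. The count of members at the fold threshold was 1 there (2 with the pseudocount of 0.1, 3 with no filter, 2 with limma-voom, 1 to 2 with 1 library left out). Of all genes, 144 were higher at it, 247 with the pseudocount of 0.1 and 153 with no filter. They were 281 with limma-voom and 82 to 218 with 1 library left out. At the fold threshold the count of members was 1 in hydrogel against control (2 with the pseudocount of 0.1, 2 with limma-voom, 0 to 3 with 1 library left out). It was 3 in PCL against control (1 to 5 with 1 library left out) and 1 in PCL against hydrogel (0 to 1 with 1 library left out). Of all genes in hydrogel against control, 187 were lower, 275 with the pseudocount of 0.1 and 307 with limma-voom. With 1 library left out, 17 to 840 were higher there (102 in the main comparison) and 77 to 354 lower. These ranges were 91 to 651 (main 300) and 119 to 293 (main 160) in PCL against control. In PCL against hydrogel 67 to 94 were higher (main 69). Nlrp3 joined the calls at the fold threshold with the pseudocount of 0.1 and with limma-voom, in PCL against control (1.2 and 1.19) and in β-TCP against control (1.04 and 1.08). Of all genes, 392 and 382 were higher in these fits in PCL against control, against 300 in the main comparison. They were 429 and 436 in β-TCP against control, against 314. With no filter and, as a choice made after seeing the data, 1 β-TCP library left out, the log2 fold changes against control were 0.89 to 1.54 for Il10 and 0.93 to 1.98 for Il1a. For single genes, 951 alternative values had the same outcome as the main comparison, called or not called. A call was gained in 31 and lost in 299, and 0 changed direction. The cause of these shifts was not tested.

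Deviations of same-numbered libraries from their group means had r of -0.612 to 0.469, with no common direction. With so few libraries per group these values cannot exclude that the numbers pair the libraries. With the replicate block the members called at the adjusted p in β-TCP against hydrogel were 0, and 8 of the 24 pathway calls in β-TCP stayed. Depth limits Tnf, Il10, Il1a and Il6 most, with 0 to 5 fragments in many libraries.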
